A study of Homo sapiens with 4 samples.

Results

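The genes described here are 10 members of the NRF2 antioxidant pathway, chosen by gene symbol out of 55536 genes in a table of read counts. The cells were HaCaT, an immortalised human keratinocyte line. They comprise the transcription factor NFE2L2 (NRF2), its repressor KEAP1, and 8 genes that NRF2 is known to activate: NQO1, HMOX1, GCLC, GCLM, TXNRD1, SRXN1, ME1 and OSGIN1. Each symbol matched 1 row of the table, and all 10 had enough reads to be tested. RNA with poly(A) tails was sequenced in 2 libraries of cells carrying a lentivirus for overexpression of TYMP, which encodes thymidine phosphorylase, and in 2 libraries of cells labelled NC. The labels do not spell out NC, say whether NC cells received a virus, or name the promoter that drives TYMP. They also do not state that the libraries within a group were grown separately, so each p-value reflects the spread among these 4 samples, and that spread may be technical. Both groups were harvested after 48 hours. The purpose stated for the comparison was to find genes whose expression differs when TYMP is overexpressed.

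NRF2 is held at a low level in unstressed cells by KEAP1, an adaptor that hands it to a CUL3 ubiquitin ligase for degradation. Oxidants and electrophiles modify KEAP1, NRF2 then accumulates, pairs with a small MAF protein and binds antioxidant response elements in the promoters and enhancers of its targets. Those targets make glutathione, reduce thioredoxin, supply NADPH and detoxify quinones, aldehydes and heme; in skin keratinocytes the pathway is known for protection against ultraviolet light and chemical stress. Because NRF2 is controlled mainly through its protein, the level of its mRNA need not follow its activity.

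Total counts per library lay between 16209663 and 17000821. TYMP had 1221 and 1100 reads in the TYMP libraries, against 281 and 264 reads in the NC libraries (4.30-fold higher, edgeR adjusted p = 1.47e-06), which matched the labels. Over all 14380 genes tested, 478 (3.32%) passed an edgeR quasi-likelihood test at a Benjamini-Hochberg adjusted p under 0.05, 301 higher and 177 lower in the TYMP libraries. The 12 keratinocyte markers all averaged at least 1 CPM (counts scaled to library size), with a summed level of 14159 and 13513 CPM in the TYMP libraries and 11044 and 10261 CPM in the NC libraries. Of these markers, 5 were called higher and 0 lower, where 2.09% of all genes tested were called higher and 1.23% lower. The part of this marker difference in the results below was not tested. Markers of other cell types were low. The 8 fibroblast markers summed to between 4.59 and 8.88 CPM, with PDGFRA, THY1 and COL3A1 at 0, and the 8 leukocyte markers to between 2.62 and 6.39 CPM, with LYZ and CD207 among those at 0. The 7 melanocyte markers summed to between 17.4 and 27.4 CPM, with TYR at 0, and the 6 endothelial markers to between 2.72 and 3.87 CPM. Mitochondrially encoded genes took 5.09% and 4.46% of counts in TYMP replicates 1 and 2, against 4.25% and 4.24% in NC replicates 1 and 2.

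Promoter sequences were searched for the core of the antioxidant response element, TGACNNNGC, on both strands. The 300-base windows of RefSeq on GRCh38.p14 run from 250 bases before to 50 bases after a transcript start, and 9 of the 10 genes matched an entry, with 12 windows between them. The motif was present in 5 of these 12 windows, belonging to KEAP1, GCLM, TXNRD1 and ME1, and in 4687 of all 35116 windows (13.3%). A match is a description of the letters, and elements farther from the start were not searched. The matching stretches of these 4 genes are shown 5′ to 3′ along the gene with the motif in capitals; where the capitals begin with GC, the motif reads on the opposite strand. GPX2, a glutathione peroxidase that rose in the TYMP libraries, is shown beside them for comparison. Of 9 genes with windows that were called higher in the lists below, only 2 held the motif, GPX2 and IDH1. GPX2 therefore does not stand for the others.
KEAP1, chr19:10502769-10502850, minus strand: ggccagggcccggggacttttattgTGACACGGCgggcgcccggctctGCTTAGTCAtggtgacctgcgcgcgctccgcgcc
GCLM, chr1:93909431-93909489, minus strand: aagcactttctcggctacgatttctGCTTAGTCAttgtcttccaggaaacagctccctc
TXNRD1, chr12:104286905-104286963, plus strand: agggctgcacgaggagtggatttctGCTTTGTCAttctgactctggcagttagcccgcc
ME1, chr6:83431155-83431213, minus strand: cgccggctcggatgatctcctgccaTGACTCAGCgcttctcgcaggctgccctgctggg
GPX2, chr14:64942834-64942892, minus strand: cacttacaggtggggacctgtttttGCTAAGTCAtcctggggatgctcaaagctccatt

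In GCLM the motif began 34 bases before the listed start, and the same 9 letters lay 31 bases before 1 of the 2 listed starts of KEAP1, whose other match lay 54 bases before it. In TXNRD1 the match shown lay 102 bases before the inner start at position 104287032, and the window of the outer start, at 104215779, held 2 further matches. In ME1 the match shown lay 137 bases before the start, and a further match began 11 bases after it. NQO1, GCLC, SRXN1, OSGIN1 and NFE2L2 had no match in their windows.

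None of the 10 genes was called in the TYMP libraries by the edgeR test, where 3.32% of all genes tested were (2.09% higher and 1.23% lower). At that share, 0 calls among 10 genes does not set them apart. A gene that was not called may still have changed, within the intervals given below. The count was 0 of 10 at adjusted p under 0.05, 0 of 10 at an unadjusted p under 0.05 (14.7% of all genes), 0 with DESeq2 and 0 with limma-voom. Their median log2 fold change, TYMP over NC, was -0.01, and that of all tested genes was also -0.01. The median size of the change, without its sign, was 0.15 for the 10 genes and 0.15 for all tested genes. Both TYMP libraries lay on 1 side of both NC libraries for 5 of the 10 (GCLC and ME1 higher, NQO1, TXNRD1 and HMOX1 lower), against 43.6% of all tested genes, 21.8% in each direction. In bulk RNA, fewer cells expressing a gene and less of its RNA per cell cannot be told apart. With 2 libraries in each group the smallest p of an exact permutation test is 0.333, and p-values therefore come from the edgeR fit over all genes.

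The precision differed widely between members. The 7 members with at least 1000 reads in every library (NFE2L2, KEAP1, NQO1, GCLC, GCLM, TXNRD1 and ME1) had between 1103 and 4363 reads. Their 95% intervals lay between 0.789-fold and 1.30-fold of the NC level. These intervals are not adjusted for the number of genes, and the edgeR fit shares the spread across genes. HMOX1, SRXN1 and OSGIN1 had between 5 and 120 reads per library, and their intervals together reached from 0.295-fold to 2.41-fold.

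**Figure D1:**
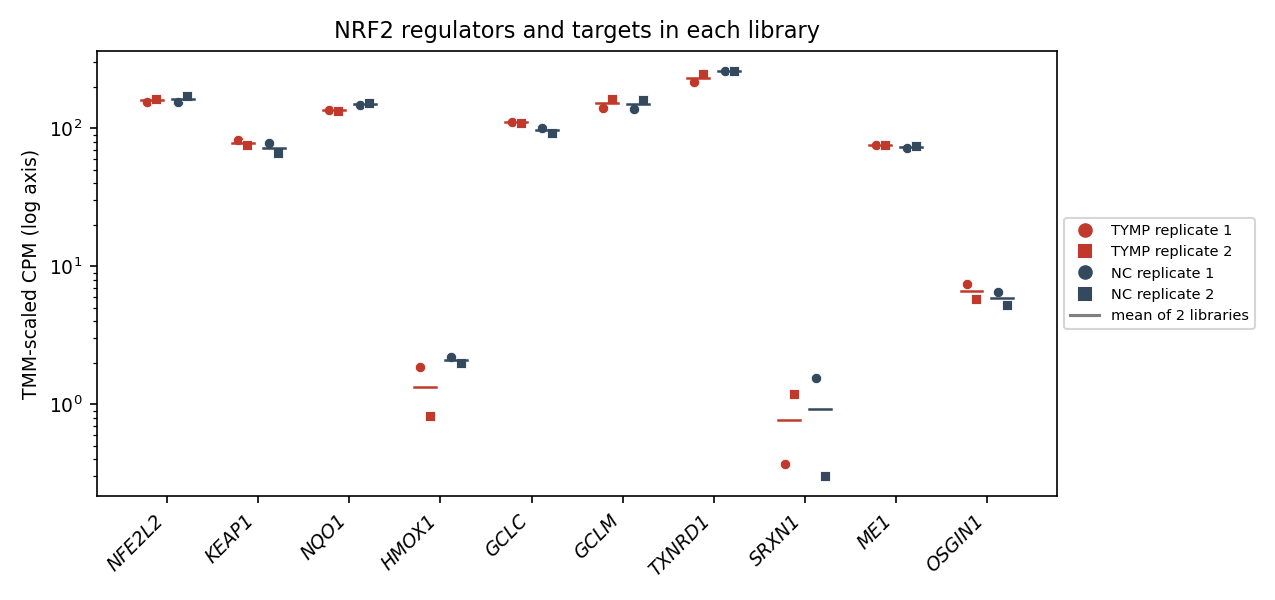
CPM scaled by TMM on a log axis for the 10 genes, with TYMP libraries in red left of NC libraries in dark blue; circles are replicate 1, squares replicate 2 and lines the mean of 2 libraries. The groups lie close together for the 7 abundant genes, while the replicates of SRXN1 and of HMOX1 in the TYMP group lie far apart.

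**Figure D2:**
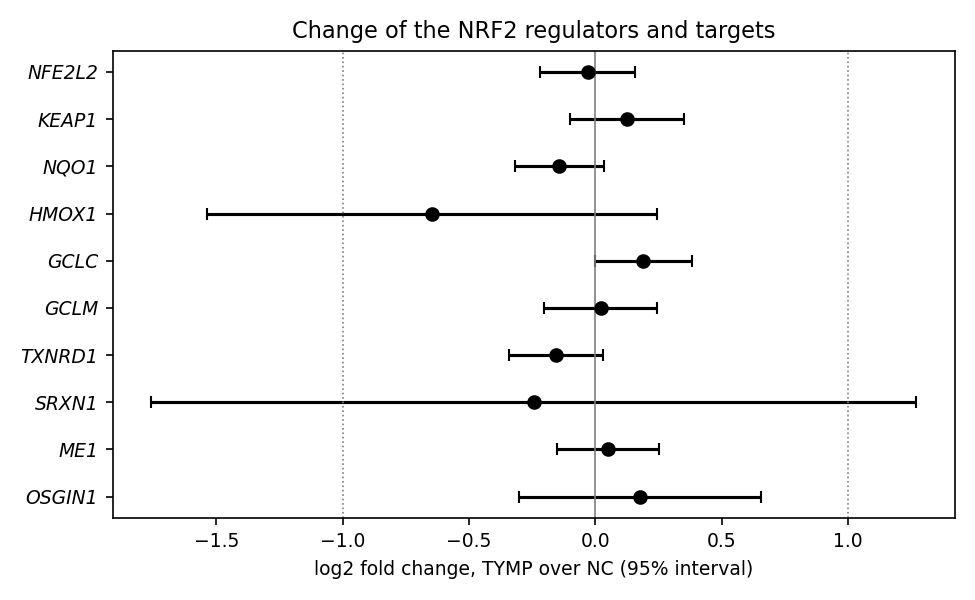
log2 fold change, TYMP over NC, of each of the 10 genes with its 95% interval; the dotted lines mark 2-fold changes. All 10 intervals include 0, and those of HMOX1 and SRXN1 are the widest, from -1.54 to 0.24 and from -1.76 to 1.27.

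NFE2L2 encodes the transcription factor itself and spans positions 177227595 to 177392697 of chromosome 2, minus strand (GRCh38, GENCODE 29). Its level was 155 and 164 CPM in the TYMP libraries and 154 and 172 CPM in the NC libraries. The TYMP values lay within the range of the NC values, with a log2 fold change of -0.03 ± 0.09 (SE; edgeR adjusted p = 0.922). Of its exon bases, 17.6% are shared with AC019080.1 on the same strand, which had 75 and 79 reads in the TYMP libraries and 70 and 63 reads in the NC libraries. KEAP1, its repressor, on chromosome 19 between 10486120 and 10503741, was at 81.9 and 75.6 CPM in the TYMP libraries and 77.8 and 66.6 CPM in the NC libraries. The groups overlapped, and the log2 fold change was 0.13 ± 0.10 (SE; edgeR adjusted p = 0.659). Of the genes whose pattern over the 4 libraries was most like that of NFE2L2, the nearest were OXNAD1, ZNF641 and WAC-AS1. They lay at distances of 0.0095, 0.012 and 0.014 in log2 CPM deviations, and 889 of 14379 other genes lay within 0.1. In NFE2L2 and these 3 genes, replicate 2 was above replicate 1 in both groups, which follows from how the 3 were chosen.

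The partners of NRF2 and the proteins that turn it over gave 0 calls of 18 tested with edgeR (3.32% of all genes were called), with a median log2 fold change of -0.08. At an unadjusted p under 0.05 there were 4 of 18, against 14.7% of all genes. DESeq2 called 1, RXRA, and limma-voom called 0. MAFF, a small MAF protein that pairs with NRF2, was at 19.7 and 17.2 CPM in the TYMP libraries and 26.2 and 26.4 CPM in the NC libraries. Its groups did not overlap, and its log2 fold change of -0.51 ± 0.13 (SE) had an edgeR adjusted p of 0.0542. The adjusted p was under the threshold with no filter on low counts (0.0133) and without NC replicate 1 (0.0375) or NC replicate 2 (0.0400). It was over the threshold with DESeq2 (0.122), on log2(FPKM + 1) (0.117) and without TYMP replicate 1 (0.0860) or TYMP replicate 2 (0.413). RXRA, a nuclear receptor that can bind NRF2, was at 374 and 321 CPM in the TYMP libraries and 286 and 258 CPM in the NC libraries. Its edgeR adjusted p was 0.0591 and its DESeq2 adjusted p 0.0244, for log2 fold changes of 0.35 and 0.35. In edgeR its adjusted p was under the threshold with library totals only (0.0284), with no filter (0.00510) and at 5 CPM in 2 libraries (0.0460). It was over the threshold with limma-voom (0.0562) and on log2(FPKM + 1) with limma (0.142). The log2 fold change of RXRA was 0.43 without NC replicate 1 and 0.28 without NC replicate 2. It was 0.25 without TYMP replicate 1 and 0.46 without TYMP replicate 2. BACH1, which competes with NRF2 at its elements, had groups that overlapped and a log2 fold change of 0.01. SQSTM1, an autophagy receptor that can sequester KEAP1, had only 43 and 43 reads in the TYMP libraries and 41 and 25 reads in the NC libraries. In GENCODE 29, 20.7% of the exon bases of SQSTM1 are shared with MRNIP on the opposite strand. MRNIP had 68 and 36 reads in the TYMP libraries and 7 and 9 reads in the NC libraries. Without a stated strand setting, reads of the 2 genes in the shared bases cannot be told apart.

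GCLC and GCLM encode the catalytic and the modifier subunit of glutamate-cysteine ligase, the rate-limiting enzyme of glutathione synthesis. GCLC, on chromosome 6 between 53497341 and 53616970, was at 111 and 109.6 CPM in the TYMP libraries, against 101 and 92.7 CPM in the NC libraries. Both TYMP libraries lay above both NC libraries, by a log2 fold change of 0.19 ± 0.09 (SE), which did not pass the test (edgeR adjusted p = 0.351). GCLM, on chromosome 1 between 93885205 and 93909456, was at 139 and 164 CPM in the TYMP libraries and 138 and 161 CPM in the NC libraries. Its replicates differed more than its groups did: replicate 2 was 1.18-fold above replicate 1 in the TYMP group and 1.17-fold in the NC group, and the log2 fold change was 0.02 ± 0.10 (SE; edgeR adjusted p = 0.958). The 95% interval of the TYMP level relative to NC ran from 0.998-fold to 1.30-fold for GCLC and from 0.869-fold to 1.18-fold for GCLM.

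Elsewhere in glutathione handling, 1 gene rose, 2 fell and 20 were not called of 23 tested, where 2.09% of all genes were called higher and 1.23% lower. The median log2 fold change was 0.04, and 6 of 23 had an unadjusted edgeR p under 0.05, against 14.7% of all genes. CHAC1, an enzyme that breaks glutathione down, was at 6.21 and 3.95 CPM in the TYMP libraries, against 16.4 and 17.5 CPM in the NC libraries, and fell by 1.74 ± 0.21 (SE) on the log2 scale (edgeR adjusted p = 0.000413). SLC7A11, the cystine transporter subunit that feeds glutathione synthesis and is also a known NRF2 target, was at 77.2 and 90.9 CPM in the TYMP libraries, against 123 and 151 CPM in the NC libraries. It fell by 0.71 ± 0.11 (SE) on the log2 scale (edgeR adjusted p = 0.00334), but was not called on log2(FPKM + 1) with limma (adjusted p = 0.0711). GPX2, whose promoter stretch is shown above, was at 118 and 121 CPM in the TYMP libraries, against 82.0 and 76.7 CPM in the NC libraries. It rose 1.51-fold (log2 fold change 0.59 ± 0.09 SE, edgeR adjusted p = 0.00203). GSS and GSR, which complete glutathione synthesis and recycle its oxidised form, had log2 fold changes of -0.04 and 0.04 and were not called.

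TXNRD1 and SRXN1 act in the thioredoxin arm. TXNRD1, which reduces thioredoxin with NADPH, lies on chromosome 12 between 104215779 and 104350305 and was the member with the most reads. It was at 217 and 247 CPM in the TYMP libraries, against 259.6 and 258 CPM in the NC libraries. Both TYMP libraries were below both NC libraries, but they differed from each other by 1.14-fold, and the log2 fold change of -0.16 ± 0.09 (SE) did not pass the test (edgeR adjusted p = 0.440). Without TYMP replicate 1 that value was -0.06 and without TYMP replicate 2 it was -0.26, neither called.

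SRXN1 encodes sulfiredoxin, which repairs overoxidised peroxiredoxins. It lies on chromosome 20 between 646615 and 653370, and had 6 and 20 reads in the TYMP libraries and 26 and 5 reads in the NC libraries. Within each group the replicates differed by 3.16-fold (TYMP) and 5.12-fold (NC), and the groups overlapped (log2 fold change -0.24 ± 0.70 SE, edgeR adjusted p = 0.925). Its direction changed with single libraries: the log2 fold change was 1.35 without NC replicate 1 and -1.30 without TYMP replicate 2. Of the exon bases of SRXN1 in GENCODE 29, 85.0% are shared with AL121758.1, a protein-coding gene on the same strand that had 0 and 0 reads in the TYMP libraries and 1 and 2 reads in the NC libraries. The labels do not say how reads in shared exons were assigned, so the level of SRXN1 is uncertain.

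Of the other thioredoxin and peroxiredoxin genes, 1 rose and 15 were not called of 16 tested (over all genes, 2.09% were called higher). Their median log2 fold change was -0.06, and 2 of 16 had an unadjusted edgeR p under 0.05, against 14.7% of all genes. SESN3, a sestrin, was at 37.9 and 43.5 CPM in the TYMP libraries, against 19.3 and 23.7 CPM in the NC libraries, and rose 1.89-fold (log2 fold change 0.92 ± 0.13 SE, edgeR adjusted p = 0.00185). TXN and PRDX1, thioredoxin itself and an abundant peroxiredoxin, had log2 fold changes of -0.08 and -0.08 and were not called.

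NQO1 encodes an NAD(P)H-dependent quinone reductase that is widely read as a marker of NRF2 activity. It lies on chromosome 16 between 69706996 and 69726951. It was at 135 and 134 CPM in the TYMP libraries, against 146 and 151 CPM in the NC libraries. The replicates differed by 1.01-fold (TYMP) and 1.03-fold (NC), and both TYMP libraries were lower, yet the log2 fold change of -0.14 ± 0.08 (SE) did not pass the test (edgeR adjusted p = 0.469). Its 95% interval ran from 0.801-fold to 1.02-fold of the NC level. An antisense gene, AC092115.2, covers 17.7% of its exon bases and had 0 reads in every library.

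Of 25 other genes of quinone, aldehyde and ketone detoxification tested, 6 rose and 19 were not called, with a median log2 fold change of 0.23. Over all genes the median was -0.01 and 2.09% were called higher. At an unadjusted edgeR p under 0.05 there were 11 of 25, against 14.7% of all genes. This list, like the others, was chosen with earlier results of these data known. Its share of calls is therefore a description and not a test. Several of its enzymes are described as NRF2 targets in human cells. ALDH3A1, an aldehyde dehydrogenase of stratified epithelia, was at 40.2 and 40.2 CPM in the TYMP libraries, against 15.3 and 11.9 CPM in the NC libraries, and rose 2.95-fold (log2 fold change 1.56 ± 0.14 SE, edgeR adjusted p = 5.63e-05). AKR1C2, an aldo-keto reductase that also acts on steroids, was at 132 and 135 CPM in the TYMP libraries, against 64.4 and 62.0 CPM in the NC libraries, and rose 2.11-fold (log2 fold change 1.07 ± 0.09 SE, edgeR adjusted p = 2.72e-05).

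Its neighbour AKR1C3, a reductase of prostaglandins and steroids on the same chromosome 10, rose 1.88-fold, at 24.2 and 24.1 CPM in the TYMP libraries, against 12.6 and 13.2 CPM in the NC libraries (edgeR adjusted p = 0.00199). ALDH3A2, a fatty aldehyde dehydrogenase, rose 1.45-fold, at 262 and 270.1 CPM in the TYMP libraries, against 183 and 185 CPM in the NC libraries (edgeR adjusted p = 0.00193). The AKR1C genes are close paralogs, so reads that match several of them make their single values uncertain. The other two called genes, AKR1C1 and AKR1B10, are named because the count is small, after their values were seen. AKR1C1 had 317 and 330 reads in the TYMP libraries and 203 and 172 reads in the NC libraries (1.74-fold, edgeR adjusted p = 0.00888; 0.0977 on log2(FPKM + 1)). AKR1B10 had 54 and 56 reads in the TYMP libraries and 23 and 7 reads in the NC libraries, with a log2 fold change of 1.88 (edgeR adjusted p = 0.0310). AKR1B10 missed the threshold with DESeq2 (adjusted p = 0.0789), on log2(FPKM + 1) (0.0608) or without NC replicate 2 (log2 fold change 1.27, adjusted p = 0.0709), and without NC replicate 1 its log2 fold change was 2.96.

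Of the 11 genes called higher in all these lists, 9 had promoter windows, and ALDH3A1 and AKR1B10 were not searched. The core motif was present in 2 of the 12 windows, those of GPX2 and IDH1, where it was present in 13.3% of all windows. It was absent from the windows of AKR1C1, AKR1C2, AKR1C3, ALDH3A2, DUOX1, DUOX2 and SESN3. Sequence outside the windows was not searched, so this absence does not show that a gene lacks such an element. Among the members, KEAP1, GCLM, TXNRD1 and ME1 held the motif and were not called.

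**Figure D3:**
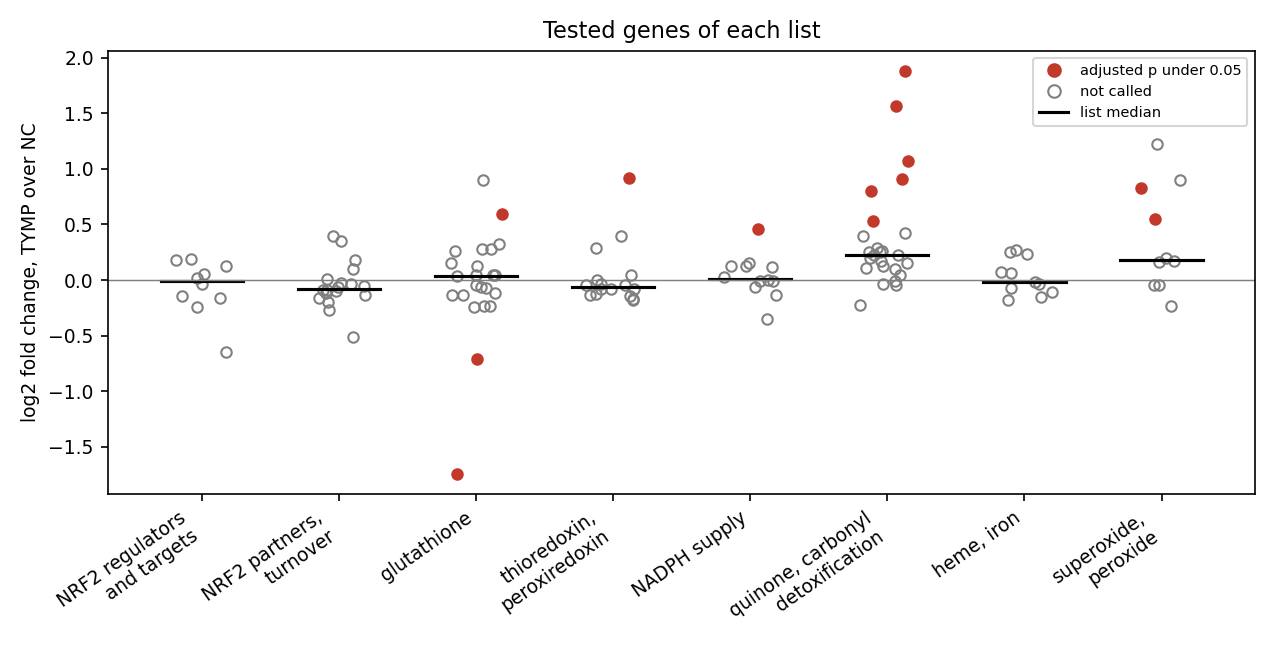
log2 fold change, TYMP over NC, of every tested gene in the 8 lists; filled red points passed the test, open grey points did not, and black lines are list medians. Of the 13 called genes, 6 lie in the quinone and carbonyl list, whose median is 0.23, and the 10 NRF2 genes on the left hold no called gene. Over all genes tested, 3.32% were called, so 0 calls among 10 genes does not set them apart. The lists were chosen with earlier results of these data known.

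HMOX1 encodes heme oxygenase 1, which breaks heme down and is strongly induced through NRF2 when BACH1 leaves its enhancers. It lies on chromosome 22 between 35380361 and 35394214 and had few reads, 30 and 14 in the TYMP libraries and 37 and 33 in the NC libraries. Scaled, it was at 1.86 and 0.825 CPM in the TYMP libraries, against 2.20 and 1.99 CPM in the NC libraries. Both TYMP libraries were lower, but they differed from each other by 2.26-fold, and the log2 fold change of -0.65 ± 0.41 (SE) did not pass the test (edgeR adjusted p = 0.529). The value was -1.33 without TYMP replicate 1 and -0.18 without TYMP replicate 2. The 95% interval of its TYMP level, 0.345-fold to 1.18-fold of the NC level, shows how coarse the measurement was at this depth.

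Genes of heme and iron handling gave 0 calls of 11 tested with edgeR, 0 at an unadjusted p under 0.05, and 0 with DESeq2 and with limma-voom (over all genes, 3.32% were called). Without NC replicate 1 there was 1 call, and without TYMP replicate 2 there was 1, both higher in the TYMP group. The nearest to the threshold were TFRC, the transferrin receptor, and BLVRB, a biliverdin reductase, with log2 fold changes of -0.15 and 0.27 (edgeR adjusted p = 0.341 and 0.342). The groups did not overlap for either gene. TFRC was at 1633 and 1626 CPM in the TYMP libraries and 1827 and 1796 CPM in the NC libraries, and BLVRB at 23.6 and 23.9 CPM in the TYMP libraries and 19.6 and 19.7 CPM in the NC libraries. HMOX2, the constitutive heme oxygenase, had 25 and 22 reads in the TYMP libraries and 31 and 17 reads in the NC libraries. It is also annotated outside the primary assembly, so its level is uncertain.

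ME1 encodes the cytosolic malic enzyme, which supplies NADPH. It lies on chromosome 6 between 83210389 and 83431071. It was at 75.0 and 75.6 CPM in the TYMP libraries, against 71.6 and 73.9 CPM in the NC libraries. Both TYMP libraries were above both NC libraries by a small margin, with a log2 fold change of 0.05 ± 0.09 (SE; edgeR adjusted p = 0.869). Of 12 other NADPH-supplying genes tested, 1 rose and 11 were not called (over all genes, 2.09% were called higher). Their median log2 fold change was 0.01, and 2 of 12 had an unadjusted edgeR p under 0.05, against 14.7% of all genes. IDH1, the cytosolic isocitrate dehydrogenase, was at 299 and 315 CPM in the TYMP libraries, against 225 and 221 CPM in the NC libraries, and rose 1.38-fold (log2 fold change 0.46 ± 0.08 SE, edgeR adjusted p = 0.00460). PGD, which produces NADPH in the pentose phosphate pathway, had a log2 fold change of 0.13 and was not called.

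OSGIN1, an oxidative stress-induced growth inhibitor, lies on chromosome 16 between 83948282 and 83966332. It had 120 and 99 reads in the TYMP libraries and 109 and 87 reads in the NC libraries, which is 7.45 and 5.83 CPM in the TYMP libraries against 6.49 and 5.25 CPM in the NC libraries. The groups overlapped, and in both of them replicate 1 was the higher library; the log2 fold change was 0.18 ± 0.22 (SE; edgeR adjusted p = 0.795). GENCODE 29 gives 13.9% of its exon bases to AC009119.2 as well, a protein-coding gene on the same strand.

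Among enzymes that make or remove superoxide and peroxide, 2 rose and 8 were not called of 10 tested (over all genes, 2.09% were called higher), with a median log2 fold change of 0.18. The 2 were the dual oxidases, which release hydrogen peroxide at the cell surface. DUOX2 was at 22.8 and 22.3 CPM in the TYMP libraries, against 13.7 and 11.7 CPM in the NC libraries (1.77-fold, edgeR adjusted p = 0.00529). DUOX1 was at 109.6 and 96.4 CPM in the TYMP libraries, against 77.0 and 63.6 CPM in the NC libraries (1.46-fold, edgeR adjusted p = 0.0147). On log2(FPKM + 1) neither was called (adjusted p = 0.0848 for DUOX2 and 0.0813 for DUOX1), nor was DUOX1 without TYMP replicate 1 (adjusted p = 0.0554). The superoxide dismutases SOD1 and SOD2 and the catalase gene CAT had log2 fold changes of -0.23, 0.17 and 0.20 and were not called. At an unadjusted edgeR p under 0.05 there were 5 of 10, against 14.7% of all genes. NOXA1 had the largest change of this list and was not called (log2 fold change 1.23, edgeR adjusted p = 0.0914). It had 61 and 60 reads in the TYMP libraries and 17 and 35 reads in the NC libraries.

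**Figure D4:**
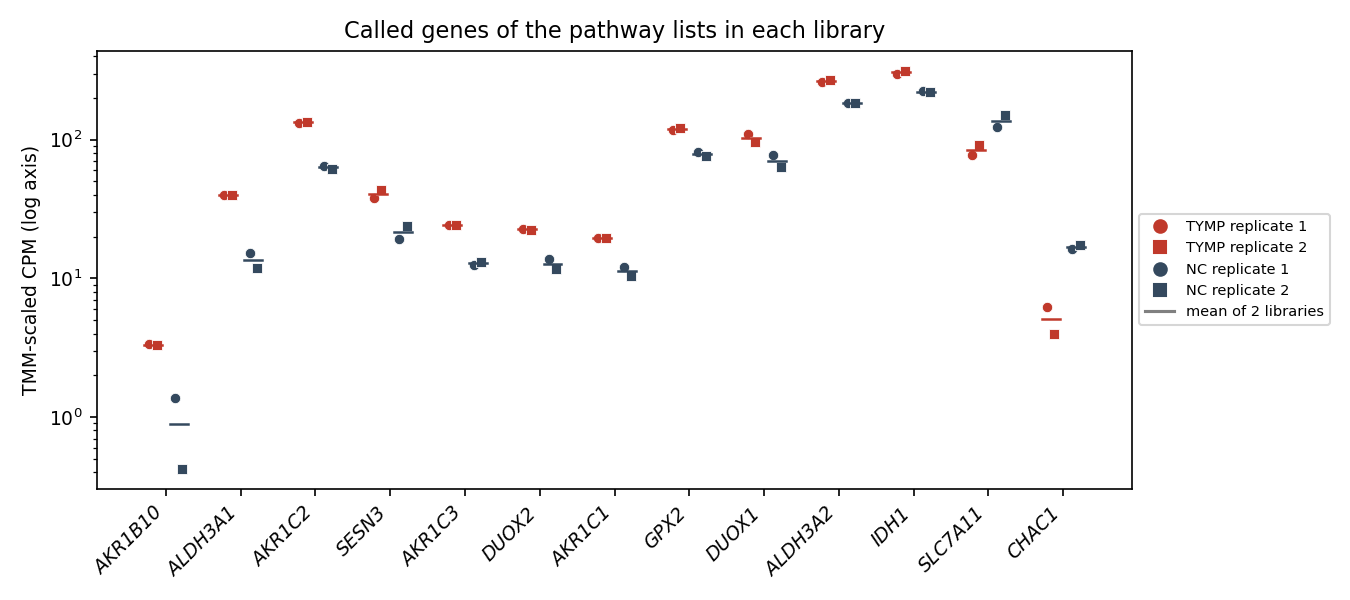
CPM scaled by TMM on a log axis for the 13 called genes of the pathway lists, ordered by log2 fold change, with TYMP libraries in red left of NC libraries in dark blue; circles are replicate 1, squares replicate 2 and lines the mean of 2 libraries. In 11 genes both TYMP libraries lie above both NC libraries, and in SLC7A11 and CHAC1 they lie below.

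Levels of different genes were set side by side per length, as the authors' FPKM averaged over the 4 libraries. NQO1 was the most abundant of the 10 at 47.6 ± 2.54 FPKM (SD, n = 4), followed by TXNRD1 at 36.5 ± 2.94, GCLM at 27.7 ± 2.83, ME1 at 22.2 ± 0.744 and KEAP1 at 21.1 ± 1.78 FPKM. GCLC at 12.02 ± 1.06 and NFE2L2 at 10.7 ± 0.628 FPKM came next. OSGIN1, HMOX1 and SRXN1 were the lowest, at 1.12 ± 0.164, 0.743 ± 0.260 and 0.336 ± 0.241 FPKM. The level of SRXN1 is uncertain because of the exons it shares with AL121758.1. The ranges of the 4 libraries overlapped between ME1 and KEAP1, between GCLC and NFE2L2, between OSGIN1 and HMOX1, and between HMOX1 and SRXN1, so the order within these pairs was not beyond the spread. The position of NFE2L2 rested on the gene length behind its FPKM. The authors' values correspond to 14976 bases, where the merged exons of GENCODE 29 cover 5979 bases. The same counts over the GENCODE 29 length give NFE2L2 26.9 FPKM, which is rank 4 rather than rank 7 of the 10. Reads were not counted again, and any outside the GENCODE 29 exons remain included. The level of NFE2L2 beside the other genes is therefore uncertain. OSGIN1, at 5558 against 3460 bases, kept its place in the same rescaling.

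**Figure D5:**
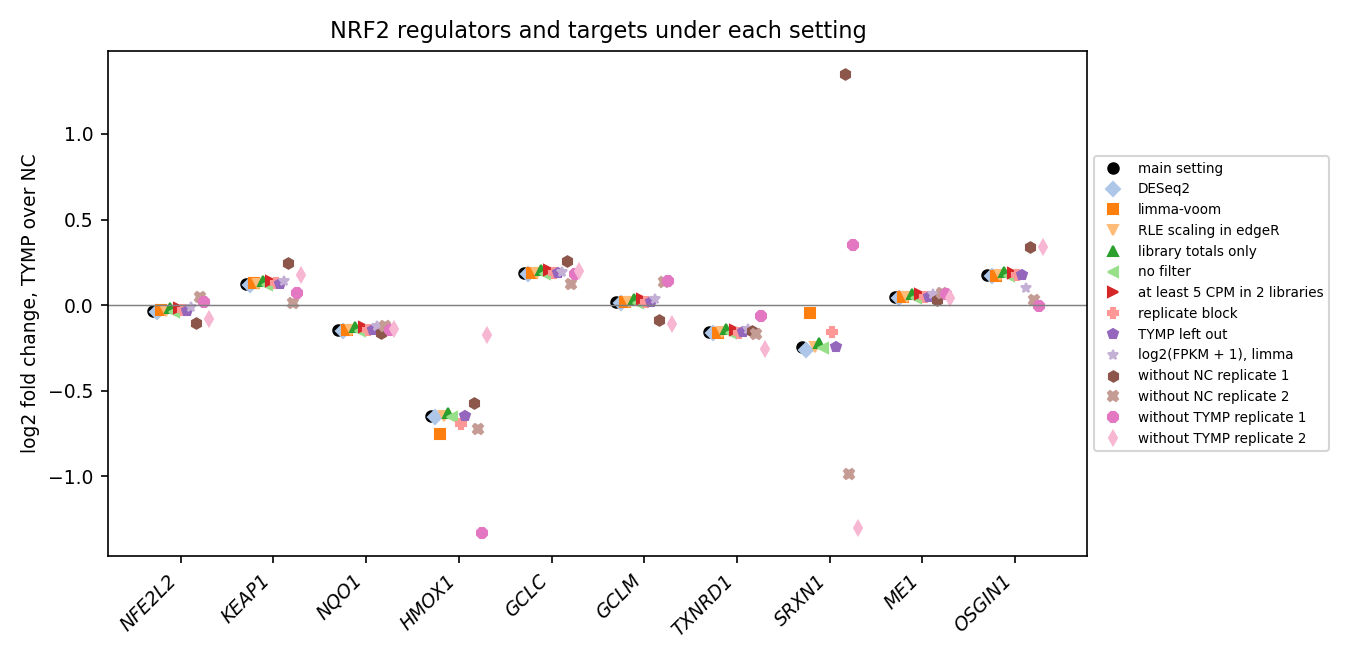
log2 fold change, TYMP over NC, of the 10 genes under the main setting and each of 13 alternatives, one symbol per setting. Values of the 7 abundant genes lie between -0.26 (TXNRD1) and 0.26 (GCLC). KEAP1, NQO1, GCLC, TXNRD1 and ME1 keep their sign throughout, and NFE2L2 and GCLM do not. SRXN1 ranges from -1.30 to 1.35 and HMOX1 from -1.33 to -0.18 when single libraries are left out.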

How the data were processed

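RNA-seq of HaCaT cells was deposited as 1 table with raw read counts and FPKM per gene and library; the submitters' processing notes name HISAT2, HTSeq 0.13.5 and GRCh38, without roles. Neither the annotation release, the strand setting nor the treatment of multiply matching reads is stated there. The deposited FPKM equalled count over library total and a whole-number gene length in 87668 of 87668 nonzero values (tolerance 0.001 bases), and served only for levels and 1 alternative. Counts were tested with edgeR 4.0.16 in R 4.3.3: filterByExpr, TMM, robust quasi-likelihood F test, group as the only term, Benjamini-Hochberg over 14380 genes. CPM are TMM-scaled. Intervals are at 95%, and each edgeR SE is the absolute log2 fold change over the square root of F. The procedure was tested on simulated data. Alternatives used DESeq2 1.42.0, limma 3.58.1 (voom, and log2(FPKM + 1) for genes of mean FPKM at least 1), other scalings and filters, a replicate block and each library left out. Replicates differed beyond sampling noise (chi-square per degree of freedom 6.40 for TYMP, 8.15 for NC).

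The 10 genes and the lists were chosen with earlier results of these data known. Named genes are all 10, TYMP, the 3 most like NFE2L2, and per list up to 4 called genes by smallest p, or 2 where none was called; other list genes were named after their values were seen. Gene positions and exon overlaps came from GENCODE 29, promoters from RefSeq (GRCh38.p14). TRIM16L stands in 2 rows, 1 of them tested. Some list genes are not reported here by name.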

Additional observations from a re-analysis of the deposited data

How the results depend on the processing

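Of 126 refits of the 10 genes (13 alternatives, fewer where a filter removed HMOX1 or SRXN1), 117 kept direction and side of the threshold. Direction reversed only when libraries were left out, and the lone library is then assumed to vary like the other group. Over these fits the log2 fold change of NFE2L2 ran from -0.11 to 0.046 (0.017 without TYMP replicate 1), that of GCLM from -0.11 to 0.14 (-0.09 without NC replicate 1), that of SRXN1 from -1.30 to 1.35 (0.35 without TYMP replicate 1) and that of OSGIN1 from -0.0032 to 0.34. OXNAD1 ran from -0.11 to 0.036, ZNF641 from -0.11 to 0.046 and WAC-AS1 from -0.093 to 0.047, with 0.011, 0.0061 and 0.030 without TYMP replicate 1. Their likeness to NFE2L2 here follows from how they were chosen. With the replicate block, 4 of 10 members had an unadjusted edgeR p under 0.05, as did 3796 of all 14380 genes. With library totals only there was 1 of 10 (2104 of 14380 genes), and at 5 CPM 1 of 8 tested (1677 of 10200 genes). There were 0 with DESeq2, limma-voom, RLE scaling, no filter, TYMP left out and log2(FPKM + 1). DESeq2 gave no adjusted p for SRXN1.

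With the replicate number as a block, 2024 of 14380 genes were called (980 higher, 1044 lower). Of the 115 tested genes of the pathway lists, 34 were called (24 higher, 10 lower). Under this block 2 members were called, 1 higher (GCLC, log2 fold change 0.19, adjusted p = 0.0222) and 1 lower (TXNRD1, -0.16, adjusted p = 0.0349). It also called MAFF, RXRA and 2 heme and iron genes, TFRC (adjusted p = 0.00617) among them. Same-numbered libraries deviated with a correlation of 0.12 over 14380 genes, and no label says that a number marks a shared culture or day.

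With no filter 732 genes were called (288 lower), 4 lower in the lists. On log2(FPKM + 1), 215 were called (152 higher, 63 lower), and 8 in the lists (7 higher, 1 lower). Without 1 library, between 393 and 716 genes were called, between 119 and 295 of them lower, with the most lower calls without NC replicate 2; there 4 list genes were called lower. The cause of these moves was not tested. Low read counts limit HMOX1, SRXN1 and OSGIN1, and how reads in the shared exons of SRXN1 were assigned is not known.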
